A study of Mus musculus with 6 samples.

Results

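Glutathione is the main soluble thiol of mammalian cells, and 10 genes of its synthesis, reduction and use against peroxides are described here in mouse fibroblasts. Glutamate-cysteine ligase (a catalytic subunit from Gclc and a modifier subunit from Gclm) joins glutamate to cysteine, and glutathione synthetase (Gss) adds glycine. Glutathione peroxidases (Gpx1, Gpx3, Gpx4, Gpx7 and Gpx8) reduce hydrogen peroxide and lipid hydroperoxides, several of them at the cost of oxidising glutathione. Glutathione reductase (Gsr) returns the oxidised form to the reduced form with NADPH, and glutaredoxin 1 (Glrx) removes glutathione from protein thiols. All 10 genes were found by symbol among the 55401 genes of the deposited table.

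Messenger RNA libraries were made from NIH-3T3 cells, an immortalised embryonic fibroblast line of the mouse kept in DMEM with fetal bovine serum. In 3 libraries the genotype is WT, and in 3 it is a mutation of the same line, here MU, with no treatment other than culture in either. Which gene is mutated, and whether MU is 1 clone, is not stated in the labels, so the mutation and other differences between the lines cannot be told apart. Separate cultures are not stated either, so a p-value here reflects no more than the spread among these 6 libraries, which may be technical. Values are TPM (transcript abundance normalised for transcript length and library total), which keep no sequencing depth. The 10 genes were chosen with the MU and WT values of these libraries known, so those values are given as a description and support nothing. No p-value is given for them, and how many were past a threshold is given beside the share or number of all genes.

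The libraries carried fibroblast markers. The 10 fibroblast genes looked at summed to 5664 to 7141 TPM in WT and 8864 to 9262 TPM in MU. Of these 10 genes 4 rose (Col1a1, Col1a2, Thy1 and Fn1) and 0 fell in limma (1 lower at an unadjusted p under 0.05, and 0 in the authors' deposited table). The call of Thy1 was lost when any MU library was left out (limma adjusted p = 0.0579 to 0.0655). The 17 markers of epithelium, leukocytes, endothelium, muscle and adipocytes summed to 5.18 to 8.07 and 5.79 to 8.72 TPM. Of those 17, 3 were tested and 1, the endothelial gene Cdh5, was called lower, from 1.82 ± 0.861 to 0.105 ± 0.0118 TPM. Cdh5 reached the minimum for testing only through WT, where it is high, and it lost its call when any MU library was left out (limma adjusted p = 0.0626 to 0.0653). Adgre1, Myod1, Myog and Lep were listed at 0 in every library. Libraries differed in how their values followed the GC content of transcripts, with WT replicate 2 (Spearman correlation of its deviations with GC, 0.330) and WT replicate 3 (−0.250) at opposite ends across genes. Over all 14209 genes tested, 7.12% rose and 11.6% fell in limma, and the median log2 difference of MU minus WT was −0.05.

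The peroxidases split by the amino acid of their active site, and the coding sequence shows the split. Selenocysteine is written by a UGA codon, which elsewhere ends translation. The 10 codons below begin at the asparagine codon of a stretch that all 5 peroxidases share, and the capitals mark the active-site codon (GENCODE release M21, principal transcripts, 5′ to 3′).
Gpx1: aatgtcgcgtctctcTGAggcaccacgatc
Gpx3: aacgtagccagctacTGAggtctgacagac
Gpx4: aacgtggcctcgcaaTGAggcaaaactgac
Gpx7: aacgtagctagcgaaTGTggcttcacagac
Gpx8: aacgtggctagtgacTGCcgcttcacagac
In Gpx1, Gpx3 and Gpx4 this codon is TGA, at codon 47, 73 and 73 of the transcript's coding sequence. The annotation carries 1 selenocysteine feature for each of them. In Gpx7 and Gpx8, peroxidases of the endoplasmic reticulum, it is a cysteine codon, at codon 56 and 79.

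Gclm had the strongest contrast among the synthesis genes. Gclm (ENSMUSG00000028124.15, GRCm38 chromosome 3, 122245557 to 122270732, plus strand) had 428, 371.5 and 459.8 TPM in WT and 179, 178 and 159 TPM in MU. The groups did not overlap, and all 3 MU libraries lay far below the lowest WT library. The means were 420 ± 44.7 and 172 ± 10.99 TPM (SD, n = 3), so that MU held 41.0% of the WT level. The difference on the log2(TPM + 1) scale was −1.28 (SE 0.11).

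Gclc, the catalytic partner, differed less. Gclc (ENSMUSG00000032350.9, chromosome 9, 77754535 to 77794485, plus strand) stood at 39.3, 32.2 and 37.6 TPM in WT and at 25.3, 25.2 and 25.1 TPM in MU. All MU libraries lay below all WT libraries and close to each other. MU held 69.2% of the WT mean, a log2 difference of −0.51 (SE 0.10). The ratio of Gclm to Gclc mRNA per library was 10.9, 11.5 and 12.2 in WT and 7.09, 7.06 and 6.35 in MU. The modifier subunit's mRNA thus exceeded the catalytic subunit's in every library, by a smaller factor in MU. The mean ratios were 11.5 ± 0.670 and 6.83 ± 0.418 (SD, n = 3).

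Gss, which completes the tripeptide, was the only one of the 3 synthesis genes with a higher mean in MU. Gss (ENSMUSG00000027610.17, chromosome 2, 155563181 to 155592810, minus strand) stood at 19.4, 20.3 and 17.4 TPM in WT and at 26.1, 23.4 and 27.4 TPM in MU. The groups did not overlap, with a log2 difference of 0.41 (SE 0.11). On the other strand, Acss2, an acetyl-CoA synthetase gene, shares 395 of the 5915 exon bases of Gss, and the antisense genes Gssos2 and Gssos1 share 385 and 322. Acss2 rose from 7.42 ± 0.519 to 16.96 ± 1.83 TPM (log2 difference 1.09, SE 0.12, limma adjusted p = 0.00252). The library kit marks the strand, but whether counting used the strand is not stated in the labels, and the part of these 3 genes in the Gss value was not tested. Gclm also shares exon bases with 2 genes, Gm17494 and Gm6061, with no library above 4.36 TPM.

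**Figure D1:**
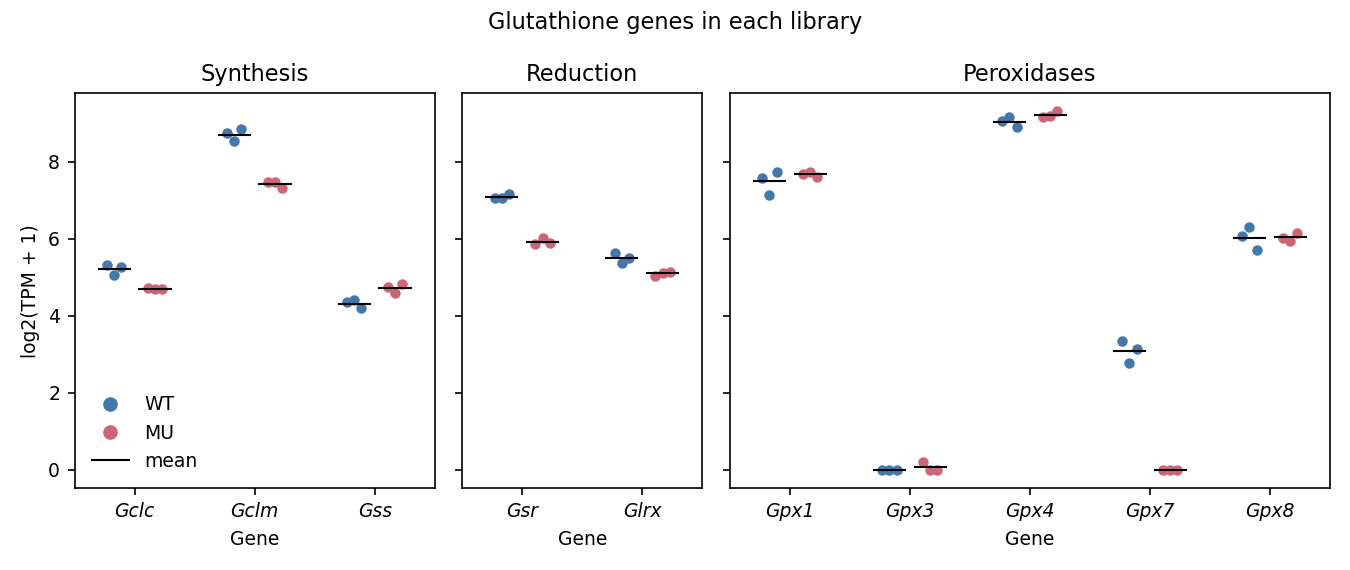
Level of each of the 10 genes in each library, as log2(TPM + 1) on the vertical axis, by role; points are libraries (3 WT in blue, 3 MU in red) and black lines are group means. Gclm, Gclc, Gsr, Glrx and Gpx7 have all MU points below all WT points, Gss has them above, and Gpx1, Gpx4 and Gpx8 overlap.

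Gsr, the gene of glutathione reductase, differed nearly as much as Gclm. Gsr (ENSMUSG00000031584.16, chromosome 8, 33652523 to 33698163, plus strand) stood at 132, 133 and 142 TPM in WT and at 57.3, 63.5 and 58.0 TPM in MU. The libraries of each group lay close together and the groups were far apart. MU held 44.0% of the WT mean, a log2 difference of −1.17 (SE 0.08).

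The surroundings of Gsr were also lower in MU. Of the 747 genes tested on chromosome 8, 76.4% had a lower mean log2 value in MU, with a median log2 difference of −0.31. Among the 40 nearest tested protein-coding genes (20 on each side) the median was −0.32, and 35 had a lower mean. Past the threshold (limma, adjusted p under 0.05) 10 fell and 2 rose, where 11.6% and 7.12% of all tested genes did. Next to Gsr, Ubxn8 fell by 0.70 (SE 0.16, limma adjusted p = 0.027) and Gtf2e2 by 0.88 (SE 0.19, adjusted p = 0.0242). Of these 40 neighbours 1, Zdhhc2, lay lower than Gsr (log2 difference −1.28, limma adjusted p = 0.00571). With the neighbours' median (relative to that of all genes) subtracted from the MU libraries, the difference of Gsr was −0.91. Of the 723 genes tested on chromosome 3, that of Gclm, 68.5% had a lower mean. On the chromosomes of the other members this share ran from 37.9% (chromosome 10) to 58.8% (chromosome 4). The median log2 difference over all tested genes was −0.05. Among the 40 neighbours of Gclm the median was −0.22, 32 had a lower mean, 8 fell and 2 rose (limma). Of these neighbours 0 lay lower than Gclm, and the same subtraction left Gclm at −1.11. The DNA copy number of these regions was not measured, and its part in the values was not tested.

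**Figure D2:**
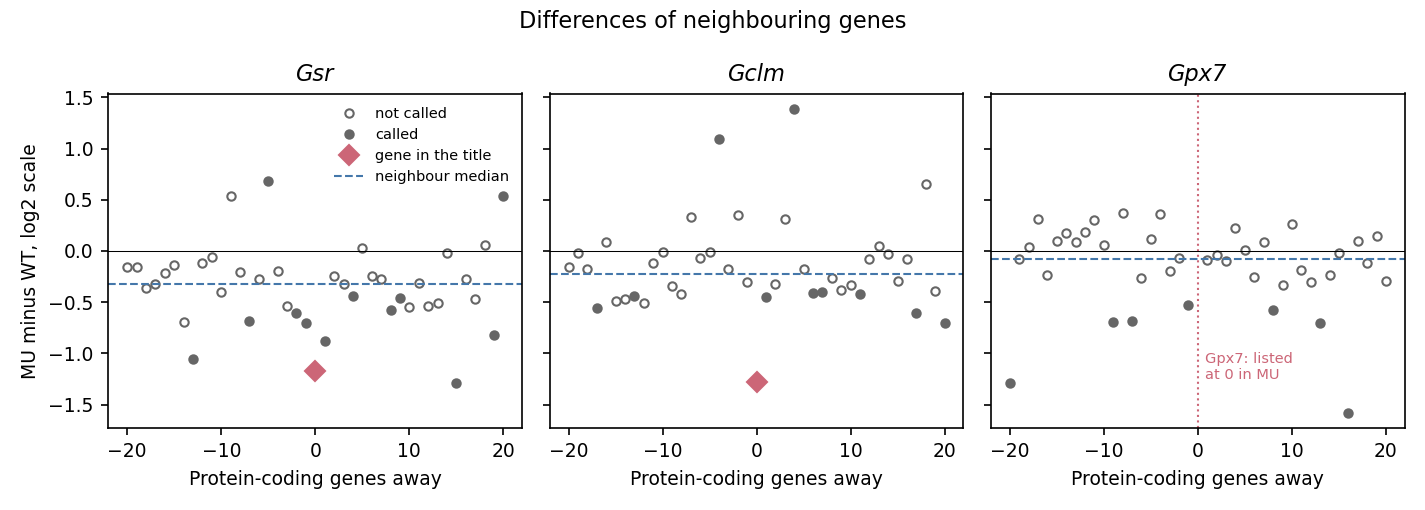
Log2 difference of MU minus WT (vertical axis) for the 20 tested protein-coding genes on each side of Gsr, Gclm and Gpx7, by order along the chromosome (horizontal axis, genes away); filled points passed the limma threshold, diamonds are Gsr and Gclm, and dashed lines are neighbour medians of −0.32, −0.22 and −0.08. Gsr and Gclm lie below their neighbours' medians, and the position of Gpx7, which is listed at 0 in MU, is dotted.

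Glrx, of the second reductive enzyme, was lower in MU by a smaller amount. Glrx (ENSMUSG00000021591.8, chromosome 13, 75839868 to 75850154, plus strand) stood at 48.7, 40.6 and 44.6 TPM in WT and at 32.1, 33.9 and 34.6 TPM in MU. The groups did not overlap, and the log2 difference was −0.40 (SE 0.10). MU held 75.1% of the WT mean.

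Gpx7 was the member with an all-or-none pattern. Gpx7 (ENSMUSG00000028597.11, chromosome 4, 108400390 to 108406961, minus strand) stood at 9.13, 5.90 and 7.89 TPM in WT and was listed at 0 in all 3 MU libraries. Gpx7 was kept for testing only through its WT values, and no fold is given against a group listed at 0. Its neighbours on both sides were measured in MU. The log2 difference was −0.53 (limma adjusted p = 0.024) for Coa7 on one side and −0.09 (adjusted p = 0.711) for Tut4 on the other. The median over 40 neighbours was −0.08, and 7 fell and 0 rose (limma), where 11.6% and 7.12% of all tested genes did.

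Gpx8, the other cysteine peroxidase of the endoplasmic reticulum, did not follow Gpx7. Gpx8 (ENSMUSG00000021760.5, chromosome 13, 113042753 to 113046410, minus strand) stood at 65.9, 79.0 and 51.6 TPM in WT and at 64.2, 60.5 and 70.6 TPM in MU. The groups overlapped, and the log2 difference was 0.01 (SE 0.16), with a sign that turned under 4 of 16 alternative settings. Gpx8 supplied 87.8%, 93.1% and 86.7% of the summed Gpx7 and Gpx8 mRNA in the WT libraries and all of it in each MU library. The sum itself had means of 73.1 ± 12.8 (WT) and 65.1 ± 5.11 TPM (MU; SD, n = 3), with overlapping groups.

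Gpx4, which reduces phospholipid hydroperoxides inside membranes and is known for restraining ferroptosis, was the most abundant of the 10 in both lines. Gpx4 (ENSMUSG00000075706.10, chromosome 10, 80047166 to 80056439, plus strand) stood at 532, 576 and 479 TPM in WT and at 573, 590 and 635 TPM in MU. WT replicate 2 lay above MU replicate 1, so the groups overlapped, and the log2 difference was 0.18 (SE 0.10). Under the alternatives it ran from 0.11 (without WT replicate 3) to 0.27 (quantile normalization). The pseudogenes Gpx4-ps1 and Gpx4-ps2 did not exceed 1.196 TPM in any library.

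Gpx1, the peroxidase of cytosol and mitochondria, also overlapped between the lines. Gpx1 (ENSMUSG00000063856.7, chromosome 9, 108338903 to 108340343, plus strand) stood at 193, 140 and 214 TPM in WT and at 207, 214 and 195 TPM in MU. The spread in WT came from replicate 2, which was the lowest for Gpx1 and the highest for Gpx4 and Gpx8. The log2 difference was 0.19 (SE 0.16), 0.01 without WT replicate 2 and 0.31 without WT replicate 3. Gpx3, which encodes the secreted peroxidase of plasma (ENSMUSG00000018339.11, chromosome 11, 54902453 to 54910377, plus strand), was listed at 0 in 5 libraries and at 0.155 TPM in MU replicate 1. It was the single member that did not reach the minimum for testing.

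The summed mRNA of the 5 peroxidases came to 799, 801 and 752 TPM in WT and 844, 864 and 900.2 TPM in MU. Every MU library lay above every WT library in this sum, where groups did not overlap in 39.2% of all tested genes. The groups overlapped in Gpx4 and in Gpx1, its largest parts, and the sum was not recomputed under other scalings. The TGA-containing genes Gpx1, Gpx3 and Gpx4 made up 90.7% ± 1.35 of it in WT and 92.5% ± 0.429 in MU (SD, n = 3). Set against Gpx1, Gsr mRNA was at a ratio of 0.686, 0.946 and 0.661 in WT and 0.277, 0.298 and 0.298 in MU. The mean ratios were 0.764 ± 0.158 and 0.291 ± 0.0119 (SD, n = 3).

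**Figure D3:**
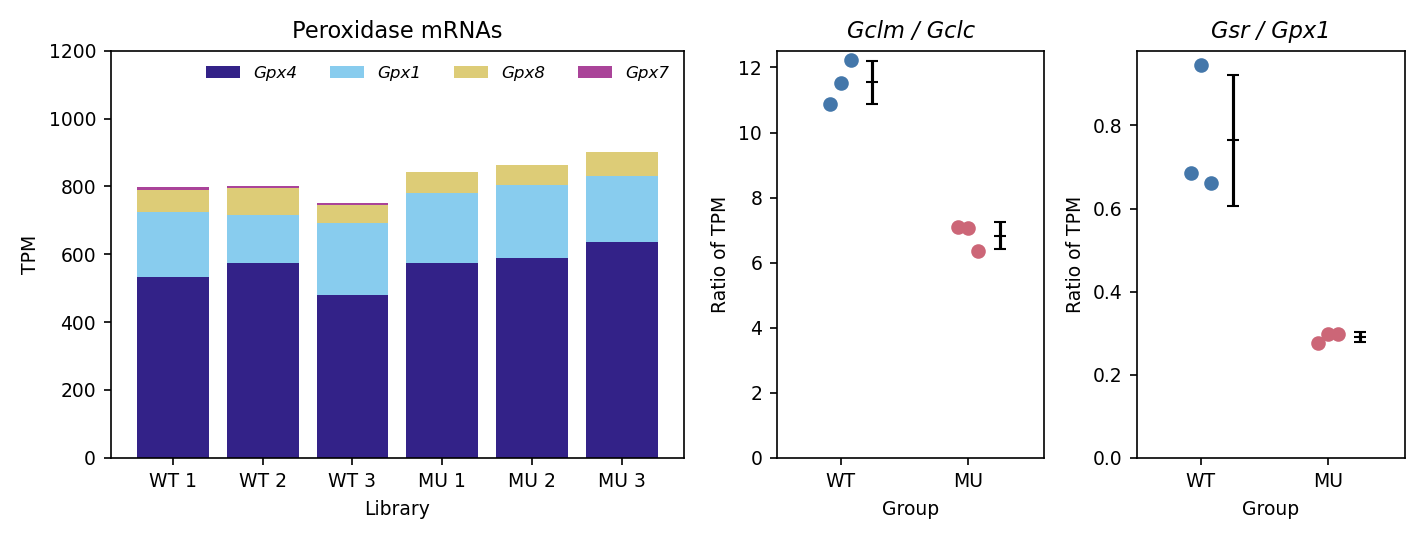
Left, summed TPM of the peroxidase genes in each library, stacked by gene (Gpx3, at or below 0.155 TPM, is not drawn); centre and right, the per-library ratio of Gclm to Gclc and of Gsr to Gpx1, with mean and SD beside the points. Gpx4 is the largest part of each bar, and both ratios in the MU libraries (6.35 to 7.09 and 0.277 to 0.298) lie below those of all WT libraries.

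In length-normalised level, the order in WT was Gpx4, Gclm, Gpx1, Gsr, Gpx8, Glrx, Gclc, Gss, Gpx7 and Gpx3. Gpx1 and Gsr were the only neighbours in this order whose library ranges overlapped. In MU the order was Gpx4, Gpx1, Gclm, Gpx8, Gsr, Glrx, Gss, Gclc, Gpx3 and Gpx7. There the ranges of Gpx8 and Gsr, of Gss and Gclc, and of Gpx3 and Gpx7 overlapped. Gclm was the second most abundant of the 10 in every WT library and the third in every MU library.

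Of the 9 genes that reached the minimum for testing, 6 were past the limma threshold of an adjusted p under 0.05 over all genes, where 18.8% of all tested genes were. In MU, 5 were lower (11.6% of all tested genes) and 1 was higher (7.12%). Groups did not overlap in 6 of the 9, and in 39.2% of all tested genes. Since the genes were chosen on this contrast, nothing is read from these counts. The number past the threshold was 3 without WT replicate 1, where 1430 of all tested genes passed, against 2667 with all libraries. It was 3 without any 1 of the MU libraries (1071 to 1203 of all genes), 4 without WT replicate 3 (2575) and 6 without WT replicate 2 (3391). It was 4 with no filter on low values (1890) or after position centring (2123), and 5 after rescaling without mtDNA-encoded genes (2385). Of the 16 alternatives, Gclm, Gsr and Gpx7 passed in 16, Gclc in 11, Gss in 8 and Glrx in 7.

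The authors' deposited table, from DESeq2, marks 6 of the 10 genes as changed, where it marks 21.1% of the genes with an adjusted p. Its log2 fold changes of MU against WT are −1.1997 for Gclm, −1.11 for Gsr, −0.46 for Gclc and −0.34 for Glrx. It gives 0.46 for Gss, 0.22 for Gpx1, 0.22 for Gpx4 and 0.04 for Gpx8.

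**Figure D4:**
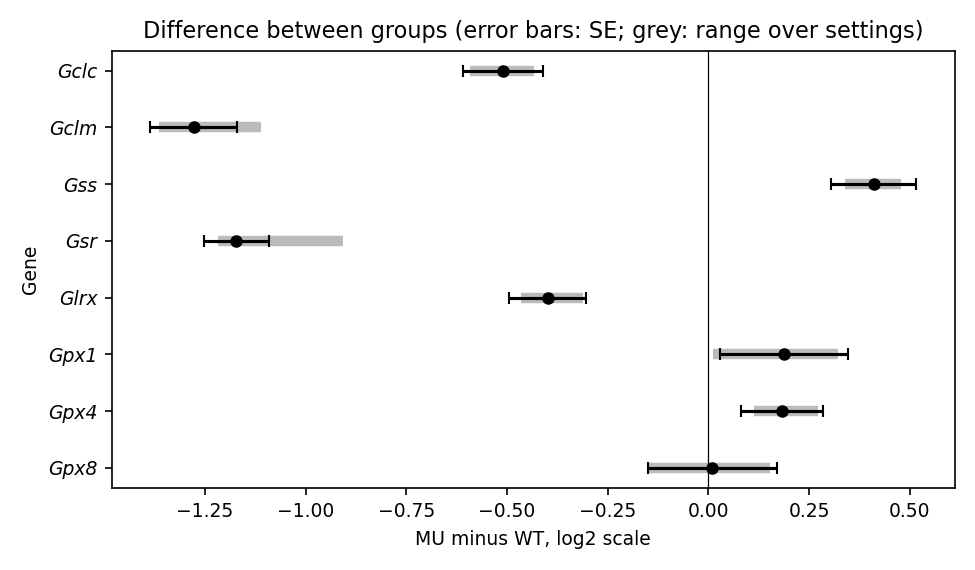
Difference of MU minus WT on the log2(TPM + 1) scale (horizontal axis) for 8 genes; points are limma estimates from 3 libraries per group, error bars are SE and grey bars span the main and all alternative settings. Gclm (−1.28) and Gsr (−1.17) lie farthest from 0, and Gpx8 (0.01) is the gene whose range crosses 0.

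Promoter sequence from RefSeq (GRCm38.p6) was matched for 8 of the 10 genes, as 250 bases before to 50 bases after each start. Entries for Gclc and Gsr were missing. The core of the antioxidant response element, the site bound by the transcription factor NRF2 with small MAF proteins, was searched as TGACNNNGC on both strands. It was present in 12.4% of 32851 promoter windows. Among the 8 genes it was found in Gclm alone, once, on the minus strand, 134 to 126 bases before the start. The 250 bases before the Gclm start (chr3:122245307-122245556, plus strand) are shown because Gclm is the synthesis gene with the strongest contrast, with the match in capitals.
Gclm: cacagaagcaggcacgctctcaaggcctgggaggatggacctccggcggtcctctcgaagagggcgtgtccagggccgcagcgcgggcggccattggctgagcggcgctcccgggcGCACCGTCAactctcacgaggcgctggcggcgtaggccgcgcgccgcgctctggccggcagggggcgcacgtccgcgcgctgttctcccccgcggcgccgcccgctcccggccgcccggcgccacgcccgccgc
The 300-base window of Gclm is 79.7% G and C, against a median of 52.7% over all windows. An AP-1 site, searched as TGANTCA on both strands, was in 7.81% of windows and, of the 8 genes, in Glrx alone, where both strands match at the same site. It is shown with 20 bases on each side (chr13:75839767-75839813, plus strand).
Glrx: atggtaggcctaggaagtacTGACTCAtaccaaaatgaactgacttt
The letters TGATGNAA, a form of the element bound by ATF4, were in 3.97% of windows and in none of the 8 genes' windows. These matches describe letters in a window and say nothing of binding.

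Of all tested genes, 7.12% rose and 11.6% fell past the limma threshold. Among genes of precursor supply, glutathione breakdown and transport, 17 of 25 were tested, 3 rose and 4 fell (limma), with a median log2 difference of −0.18. This median was −0.03 under quantile normalization, −0.11 under median-of-ratios scaling or rescaling without mtDNA-encoded genes, −0.05 with no filter on low values and −0.28 without WT replicate 3. Abcc5, an export pump of the ABC family, rose from 52.9 ± 3.79 to 103 ± 6.82 TPM (adjusted p = 0.0017). Slc1a4, a neutral amino acid transporter, rose from 31.7 ± 1.37 to 48.6 ± 0.278 TPM (adjusted p = 0.00415). Ggt7, of the gamma-glutamyltransferase family, fell from 6.24 ± 1.95 to 0.844 ± 0.276 TPM (adjusted p = 0.00441). Ggct, a gamma-glutamylcyclotransferase, fell from 6.64 ± 0.526 to 3.596 ± 0.957 TPM (adjusted p = 0.0315), and Chac1, which degrades glutathione, from 18.3 ± 2.27 to 12.6 ± 0.899 TPM (adjusted p = 0.0335). The fourth fall was Slc7a11, the cystine importer, named after its values were seen, from 3.68 ± 0.580 to 1.78 ± 0.386 TPM (adjusted p = 0.0359). Its call held without WT replicate 2 but not when any other library was left out (0.0801 to 0.111).

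The calls of Abcc5, Slc1a4 and Ggt7 held under every alternative that kept them for testing. Ggt7 reached the minimum for testing only through WT, the group where it is high, so its call is partly fixed by the filter. It was not kept at a minimum of 5 TPM. Ggct did not pass without WT replicate 1 or 3 or MU replicate 1 or 3 (limma adjusted p = 0.0735 to 0.105) or with no filter (0.0886). Chac1 did not pass when any library other than WT replicate 3 was left out (0.0538 to 0.125), nor did it pass with no filter (0.0684) or median-of-ratios scaling (0.0614). The number of genes called was 3 without WT replicate 1 or MU replicate 1 or 3, and 4 without MU replicate 2.

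Among 24 other glutathione-dependent enzymes, 17 were tested, 2 rose and 4 fell (limma), where 7.12% and 11.6% of all tested genes did. The median log2 difference of −0.07 turned positive without WT replicate 2 or MU replicate 1. The microsomal transferases Mgst2 and Mgst1 parted ways, and Mgst3, named after its values were seen, did not pass (limma adjusted p = 0.458). Mgst2 rose from 36.6 ± 4.83 to 72.4 ± 5.31 TPM (adjusted p = 0.00339), while Mgst1 fell from 38.6 ± 2.34 to 16.01 ± 3.92 TPM (adjusted p = 0.00644). Gstz1, of tyrosine breakdown, rose from 33.0 ± 1.62 to 50.7 ± 4.83 TPM (adjusted p = 0.00961). Ptges, a prostaglandin E synthase that uses glutathione, fell from 40.9 ± 2.78 to 24.6 ± 2.0525 TPM (adjusted p = 0.00565), and Gsto1, an omega-class transferase, from 547 ± 57.1 to 383 ± 2.77 TPM (adjusted p = 0.0167). The fourth fall was Gsto2, named after its values were seen, from 9.69 ± 1.10 to 6.75 ± 0.445 TPM (adjusted p = 0.0474), which did not pass with any 1 library left out (limma adjusted p = 0.0556 to 0.156). Gstz1 lost its call when MU replicate 1 was left out (limma adjusted p = 0.0504), and Gsto1 did not pass without WT replicate 1 or any 1 MU library (0.0518 to 0.0818). The number of genes called was 3 without MU replicate 1. The peroxidase genes Gpx5 and Gpx6 were listed at 0 in every library, and Gpx2 did not exceed 0.0245 TPM. The 3 other glutaredoxin genes tested (Glrx2, Glrx3 and Glrx5) did not pass (limma adjusted p = 0.152, 0.412 and 0.427), and were chosen after their values were seen.

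The list of other selenoproteins and of the machinery that inserts selenocysteine bears on Gpx1, Gpx3 and Gpx4, which need that machinery. Of 29 genes 27 were tested, 4 rose and 5 fell (limma), where 7.12% and 11.6% of all tested genes did. The median log2 difference of 0.04 turned negative without WT replicate 2, WT replicate 3 or MU replicate 3. Selenow, a small selenoprotein, rose from 129 ± 6.30 to 181 ± 8.06 TPM (adjusted p = 0.00987). Secisbp2l, a relative of the protein that binds the insertion element, rose from 15.3 ± 0.989 to 23.3 ± 2.38 TPM (adjusted p = 0.015), and Pstk, the kinase that acts on seryl-tRNA for selenocysteine, from 27.04 ± 2.28 to 36.6 ± 2.30 TPM (adjusted p = 0.0293). Txnrd1, the cytosolic thioredoxin reductase, fell from 248.8 ± 6.09 to 160 ± 6.41 TPM (adjusted p = 0.00332). Lrp8, a receptor for selenium transport protein, fell from 108 ± 13.8 to 66.3 ± 2.26 TPM (adjusted p = 0.00876), and Dio2, a deiodinase, from 1.39 ± 0.384 to 0.0329 ± 0.0285 TPM (adjusted p = 0.0143). Dio2 reached the minimum for testing only through WT, the group where it is high, so its call is partly fixed by the filter. The calls of Txnrd1 and Lrp8 held under all 16 alternatives. Named after their values were seen, the other calls were Msrb1, a methionine sulfoxide reductase, which rose from 48.5 ± 2.67 to 62.9 ± 5.58 TPM (limma adjusted p = 0.0427), and 2 falls. Selenoh, a nuclear selenoprotein, fell from 187 ± 18.3 to 130.05 ± 14.9 TPM (adjusted p = 0.0266), and Sephs2, which makes the selenium donor, from 78.6 ± 10.4 to 56.9 ± 0.486 TPM (adjusted p = 0.0328). Each of these 3 was lost in 8 or 9 of the 16 alternatives, among them leaving out WT replicate 1, MU replicate 1 or MU replicate 2 (0.0807 to 0.154). Selenow lost its call when MU replicate 1 or 3 was left out (limma adjusted p = 0.0541 and 0.0536), Secisbp2l without WT replicate 1 or MU replicate 1 or 3 (0.0509 to 0.0643) and Dio2 without any 1 MU library (0.0508 to 0.0578). Pstk did not pass without any 1 library other than WT replicate 2 (0.0576 to 0.112), or with the GC and length correction (0.0685). The number called was 2 to 4 without WT replicate 1 or any 1 MU library, and 13 without WT replicate 2.

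Gpx7 and Gpx8 work beside the enzymes of oxidative protein folding in the endoplasmic reticulum. Of these 19 genes, all tested, 4 fell and 0 rose (limma), where 11.6% and 7.12% of all tested genes did, 18.8% in either direction. At an unadjusted p under 0.05 in limma, 1 was higher, and the authors' deposited table marks 4 lower and 0 higher. Under quantile normalization 1 rose and 3 fell, and likewise under median-of-ratios scaling. The median log2 difference was −0.07, against −0.05 over all genes tested, and turned positive with median-of-ratios scaling, quantile normalization and position centring. Prdx4, the peroxiredoxin of this compartment, fell from 155 ± 11.2 to 87.7 ± 7.24 TPM (adjusted p = 0.00337), under all 16 alternatives. Tmx1, a membrane-bound thioredoxin-related protein, fell from 83.3 ± 14.9 to 51.3 ± 2.57 TPM (adjusted p = 0.0195), and Ero1l, the oxidase that recharges protein disulfide isomerase, from 75.6 ± 4.11 to 54.8 ± 5.35 TPM (adjusted p = 0.0227). The fourth fall was Txndc5, a disulfide isomerase relative named after its values were seen, from 150.4 ± 12.7 to 118 ± 5.53 TPM (adjusted p = 0.0446), which did not pass when any library other than WT replicate 2 was left out (limma adjusted p = 0.0511 to 0.165). Tmx1 did not pass without WT replicate 1 or any 1 MU library (limma adjusted p = 0.061 to 0.0781). Ero1l did not pass without WT replicate 1 or MU replicate 1 or 3 (0.0726 to 0.0874), after rescaling without mtDNA-encoded genes (0.0528) or after position centring (0.0516). The number called was 1 without WT replicate 1 or MU replicate 1 or 3, and 2 without MU replicate 2 or after rescaling without mtDNA-encoded genes.

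NRF2 is the transcription factor best known for driving Gclc, Gclm and Gsr, and KEAP1 is its inhibitor. Of 23 regulators and reference targets outside the 10 genes, 22 were tested, 1 rose and 6 fell (limma), where 7.12% and 11.6% of all tested genes did. At an unadjusted p under 0.05 in limma, 2 were higher and 9 lower. The authors' deposited table marks 3 higher and 6 lower, where it marks 21.1% of the genes with an adjusted p in either direction. The median log2 difference was −0.22. Rescaling without mtDNA-encoded genes left 2 higher and 3 lower, as did median-of-ratios scaling and quantile normalization, and the median was −0.12 under the last. Maff, a small MAF partner, fell from 22.2 ± 0.618 to 10.2 ± 0.0471 TPM (adjusted p = 0.00101) and Hmox1, heme oxygenase 1, from 48.5 ± 12.5 to 19.7 ± 3.90 TPM (adjusted p = 0.0124), both under all 16 alternatives. Srxn1, sulfiredoxin, fell from 84.6 ± 2.58 to 63.1 ± 1.24 TPM (adjusted p = 0.0115), and Cat, catalase, rose from 23.4 ± 1.33 to 29.5 ± 0.224 TPM (adjusted p = 0.041). Srxn1 did not pass without any 1 MU library (limma adjusted p = 0.0546 to 0.0655). Cat did not pass without any 1 library other than WT replicate 2 (0.0628 to 0.146), with no filter (0.0509) or after position centring (0.163). The other falls, named after their values were seen, were Mafg, a small MAF gene, from 96.5 ± 6.58 to 75.3 ± 6.12 TPM (limma adjusted p = 0.0468), Fth1, ferritin heavy chain, from 4051 ± 400.2 to 2902 ± 30.8 TPM (0.0407) and Txn1, thioredoxin, from 1210 ± 119 to 905 ± 34.2 TPM (0.0426). They passed under 4, 6 and 5 of the 16 alternatives, and none of the 3 passed without any 1 MU library (0.0742 to 0.169). Nfe2l2, which encodes NRF2, was at 61.7 ± 5.35 and 52.5 ± 1.85 TPM (adjusted p = 0.138), Keap1 at 35.7 ± 5.06 and 30.7 ± 4.93 TPM (0.388) and the classical target Nqo1 at 65.7 ± 13.02 and 62.5 ± 3.20 TPM (0.828). These 3 were named after their values were seen. The number called was 2 without any 1 MU library, 4 without WT replicate 1 or 3, and 3 with no filter or after position centring.

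**Figure D5:**
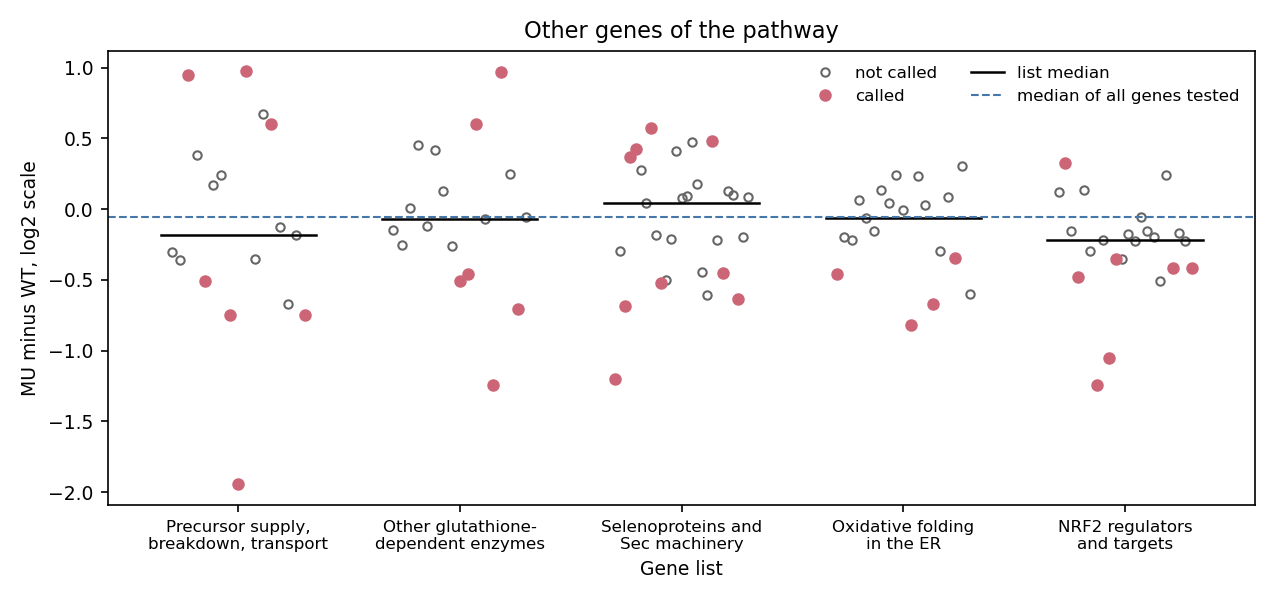
Log2 difference of MU minus WT (vertical axis) for each tested gene of 5 lists around the glutathione genes; filled points passed the limma threshold, black lines are list medians and the dashed line is the median of all genes tested (−0.05). The list medians lie between −0.22 (NRF2 regulators and targets) and 0.04 (selenoproteins and their machinery).

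By profile over the 6 libraries, the 3 protein-coding genes nearest to Gsr among 11357 compared included Lrig1 (Euclidean distance between mean-centred log2(TPM + 1) values 0.153) and Fam110c (0.159). The 3 nearest to Gclm included Sema5a (0.162) and Mmd (0.184). Those nearest to Gss were Hlcs (0.0905), Vwa8 (0.096) and Stk25 (0.102). With 2 groups of 3 libraries, such distances mostly follow the difference between the groups.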

How the data were processed

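Messenger RNA of 3 WT and 3 MU libraries was measured. Per the submitters' processing notes reads were handled on mm10 with DESeq2 1.20.0, featureCounts 1.5.0-p3, HISAT2 2.05.0 and FastQC 0.11.4, in roles that are not given. The authors deposited log2(TPM + 1) per gene and library, and a second table holding, for each gene, both group means in TPM, the log2 fold change and the raw and adjusted p-value. TPM keeps no depth, so no counting interval was computed and precision rests on 3 libraries per group.

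The 14209 genes that reached 1 TPM in 3 or more libraries were tested as log2(TPM + 1), with a pseudocount of 1, in limma 3.58.1 (R 4.3.3; two-sided moderated test with an intensity trend and no covariate). A gene was called where its p, adjusted by Benjamini-Hochberg over all tested genes, was under 0.05. Such differences understate the change of low genes. The fit was run on simulated data with independent normal noise per gene and library. That setting lacks deviations shared across genes, such as those with GC, so it cannot show the error rate in these data. Identifiers matched GENCODE release M21 (GRCm38) without version for 55141 of 55401 genes. Members and lists were chosen with earlier results of these data known. In each list, the 3 genes higher and the 3 lower with the smallest adjusted p among those called are named, and some genes these rules reach are not reported here. Dpep2 has more than 1 row and was left out. Same-numbered libraries were not treated as pairs (correlations of deviations 0.0495, 0.0154 and −0.0744). Alternatives were other pseudocounts, filters and scalings, a replicate block, a GC and length correction, position centring and leaving out each library.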

Additional observations from a re-analysis of the deposited data

How the results depend on the processing

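Of the 14209 genes tested, 2667 passed, and 37.9% of these were higher in MU. Median-of-ratios scaling moved this share to 49.0%, quantile normalization to 48.9% and rescaling without mtDNA-encoded genes to 48.5%. Leaving out 1 library gave 1071 to 3391 genes. The counts of called genes when 1 library was left out ranged from 3 to 6 for the 10 glutathione genes (6 with all libraries), from 3 to 7 for supply, breakdown and transport (7), from 3 to 8 for other glutathione-dependent enzymes (6), from 2 to 13 for selenoproteins and their machinery (9), from 1 to 6 for oxidative folding (4) and from 2 to 8 for NRF2 regulators and targets (7). The labels give no meaning to the replicate numbers. With them as a replicate block, 1093 genes passed in all, 3 of the 10 glutathione genes, 3 in supply, breakdown and transport, 2 among selenoproteins and their machinery, 1 in oxidative folding and 2 among NRF2 regulators and targets. With no filter on low values, 3 passed in supply, breakdown and transport and 3 among NRF2 regulators and targets, of which 3 passed after position centring. In oxidative folding, 2 passed after rescaling without mtDNA-encoded genes. The cause of these shifts was not tested. The differences of Gpx8 ran from −0.15 to 0.15, and those of Gsr from −1.22 to −0.91. The depth behind each value is unknown.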
